A study of Mus musculus with 6 samples.

Results

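The 10 genes of nitric oxide, arginine and polyamine metabolism described here were measured in microglia, the macrophages that reside in the brain, in culture. They were chosen by gene symbol (Nos2, Gch1, Slc7a2, Ass1, Asl, Arg1, Arg2, Odc1, Azin1 and Sat1), and all 10 were found among the 48005 gene entries of the deposited count table. Each of the 10 had an entry of its own, not joined with an overlapping gene, and together they held 197 exon bins, the pieces of exon for which reads were counted. All passed the filter on low counts.

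The EV-treated group was 3 samples of cultured CD1 microglia given extracellular vesicles (EVs), small membrane-bound particles that cells shed. The vesicles came from primary neural stem cells (NSCs) of the CD1 subventricular zone (SVZ), grown as a monolayer and harvested by serial centrifugation. The control group was 3 samples of CD1 microglia, also cultured, that had the control treatment. The sources used here do not give the dose, the duration or the make-up of the control treatment. They do not say either whether samples are from different cultures, and p-values therefore reflect sample-to-sample spread that may be technical. Polyadenylated RNA was sequenced, and each library is called by its group and the letter in its title.

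Arginine stands at a branch point. The inducible nitric oxide synthase, encoded by Nos2, turns it into nitric oxide and citrulline with tetrahydrobiopterin as a cofactor, and argininosuccinate synthase and lyase turn citrulline back into arginine. The arginases instead split arginine into urea and ornithine, which ornithine decarboxylase turns into putrescine, the first polyamine. In mouse macrophages Nos2 is a classical marker of activation by microbial products and interferon, and Arg1 one of the response to interleukin 4.

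Some of the sequences behind the results are given here first. Slc7a2 encodes CAT-2, a transporter of cationic amino acids, and its transcripts use 1 of 2 mutually exclusive exons, shown because the choice between them sets the form of the transporter. Both lie on the plus strand of GRCm38, the longer at chr8:40908056-40908195 and the shorter at chr8:40908398-40908534, and were read from GENCODE transcripts. Capitals mark the bases at which the 2 exons differ when aligned.
Slc7a2 longer exon: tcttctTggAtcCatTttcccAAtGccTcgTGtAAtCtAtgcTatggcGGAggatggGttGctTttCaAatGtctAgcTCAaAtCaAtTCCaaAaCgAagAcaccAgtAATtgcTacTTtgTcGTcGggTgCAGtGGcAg
Slc7a2 shorter exon: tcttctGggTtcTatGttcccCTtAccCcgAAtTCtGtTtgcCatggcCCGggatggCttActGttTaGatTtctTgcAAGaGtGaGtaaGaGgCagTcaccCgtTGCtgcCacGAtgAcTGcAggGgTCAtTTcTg
The exons shared 84 of 140 aligned bases (60.0%). In translation, the stretch from the longer exon was identical to the related transporter CAT-1 (Slc7a1) at 35 of 43 residues (81.4%), and that from the shorter exon at 25 of 42 residues (59.5%). The CAT-1-like exon belongs to the high-affinity form known from activated macrophages, CAT-2B, and the other to the low-affinity form of liver, CAT-2A.

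Sat1 encodes the enzyme that acetylates spermidine and spermine for export or breakdown. Its intron 3 holds an extra exon of 110 bases, chrX:155215121-155215230 on the minus strand, which some transcripts include. The reading frame ends 14 bases into it, at the stop codon in capitals.
Sat1 extra exon, start to stop codon: gttacagtctcTAG
Transcripts with this exon are annotated as targets of nonsense-mediated decay, the surveillance pathway that destroys messages with an early stop. Skipping of the exon is known to rise with polyamine levels.

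RefSeq promoter sequences on GRCm38.p6, from 250 bases before to 50 bases after the gene start, were matched for 4 of the 10 genes (Gch1, Odc1, Ass1 and Sat1). Those of Gch1 (chr14:47189364-47189663, minus strand) and Odc1 (chr12:17544623-17544922, plus strand) are shown because these genes had the highest rises of the 4. Gch1 encodes GTP cyclohydrolase, the rate-limiting enzyme of tetrahydrobiopterin synthesis. Capitals mark matches to 7 motifs searched on both strands: the TATA box (TATAAA), the E-box (CACGTG), the AP-1 site (TGACTCA), the CRE (TGACGTCA), the CCAAT box (CCAAT), the GC box (GGGCGG) and the kappa B consensus.
Gch1 promoter: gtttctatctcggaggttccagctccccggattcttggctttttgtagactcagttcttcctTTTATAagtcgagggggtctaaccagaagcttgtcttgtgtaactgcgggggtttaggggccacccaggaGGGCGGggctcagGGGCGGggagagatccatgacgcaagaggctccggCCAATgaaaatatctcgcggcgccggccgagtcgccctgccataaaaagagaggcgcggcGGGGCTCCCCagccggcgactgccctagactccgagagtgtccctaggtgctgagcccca
Odc1 promoter: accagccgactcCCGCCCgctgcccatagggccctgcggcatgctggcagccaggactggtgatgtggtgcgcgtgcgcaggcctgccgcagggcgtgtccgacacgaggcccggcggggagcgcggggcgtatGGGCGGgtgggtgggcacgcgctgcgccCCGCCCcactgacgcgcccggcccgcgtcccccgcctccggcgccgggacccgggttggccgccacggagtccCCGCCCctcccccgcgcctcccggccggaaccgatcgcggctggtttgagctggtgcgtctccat
The Gch1 window held 1 kappa B match that starts 10 bases before the gene start, 2 GC boxes, 1 CCAAT box and 1 TATA box on the opposite strand; 8.46% of the 32851 promoters in the table held a kappa B match. The Odc1 window held 4 GC boxes, and 35.7% of promoters held at least 1. Ass1 had 1 E-box, a motif present in 7.15% of promoters, and 1 GC box, and Sat1 had 2 GC boxes. No motif overlapped another in these windows, and a match is a description of the letters alone.

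Counts summed over all bins came to 133112063 to 142805303 in EV-treated libraries and 109744701 to 162544804 in control libraries, scaled by TMM (factors of 0.855 to 0.921 in EV-treated and 1.09 to 1.16 in control libraries). Of 16605 entries tested, 66.5% changed, 33.0% rising and 33.5% falling, at an adjusted p under 0.05 by edgeR's quasi-likelihood test, and 71.3% had no overlap between the groups' libraries. Counts per 1000000 (CPM, with TMM library sizes) of the microglia and macrophage genes Csf1r and Itgam were 692 to 1006 in EV-treated libraries and 736 to 1016 in control libraries, while Cx3cr1 and P2ry12, microglia markers, fell to 1.76 to 2.98 and 0.0565 to 0.123 CPM in EV-treated libraries, against 226 to 394 and 2.9 to 5.06 CPM in control libraries. Several marker lists of other cells moved with the groups. The 7 astrocyte markers summed to 88.3 to 124 CPM in EV-treated and 10.9 to 15.6 CPM in control libraries (Gfap and Aqp4 at or near 0 in all, 3 of 5 tested rose and 1 fell), the 8 neural stem cell markers to 3.35 to 3.87 CPM in EV-treated and 55.5 to 97.7 CPM in control libraries (Sox1 at or near 0, 2 of 3 tested fell), and the 6 oligodendrocyte lineage markers to 30.6 to 43.8 CPM in EV-treated and 213 to 440 CPM in control libraries (Mog at or near 0, 1 of 5 tested rose and 2 fell). The sums overlapped for the 7 fibroblast, mural and endothelial markers (14.6 to 21.5 CPM in EV-treated and 13.9 to 36.7 CPM in control libraries), of which 3 of 5 tested rose (Dcn, Pecam1 and Pdgfrb) and 1 fell (Col1a1), and for the 5 neuron markers (0.289 to 0.527 CPM in EV-treated and 0.425 to 0.610 CPM in control libraries), of which 1 of 3 tested fell. The log2 ratio of Y-linked to Xist counts was -5.51 to -4.86 in EV-treated and -3.86 to -1.35 in control libraries and so moved with the groups too. The part of these shifts in the results below was not tested beyond the fit with this ratio as a covariate. In these bulk samples, a change in the cells present and a change in RNA per cell cannot be told apart.

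Of the 10 genes, 8 rose in EV-treated microglia, 2 (Sat1 and Azin1) passed the test in neither direction, and 0 fell by edgeR's quasi-likelihood test, beside 33.0% of all tested entries that rose and 33.5% that fell. The count of falls was also 0 at an unadjusted p under 0.05, with DESeq2 and with limma-voom, while Sat1 fell under the 5 other settings named with it below, and Azin1 too under 1 of them. The rises covered the synthase (Nos2), its cofactor enzyme (Gch1), arginine uptake (Slc7a2), citrulline recycling (Ass1 and Asl), both arginases and ornithine decarboxylase (Odc1). The groups did not overlap for 9 of the 10, all but Sat1, beside 71.3% of all tested entries. The median log2 fold change over the 10 was 2.80, beside -0.02 over all entries tested. Their summed level was 8493 to 9813 CPM in EV-treated libraries, which is 0.849% to 0.981% of scaled counts, and 909 to 1106 CPM, 0.0909% to 0.111%, in control libraries.

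**Figure D1:**
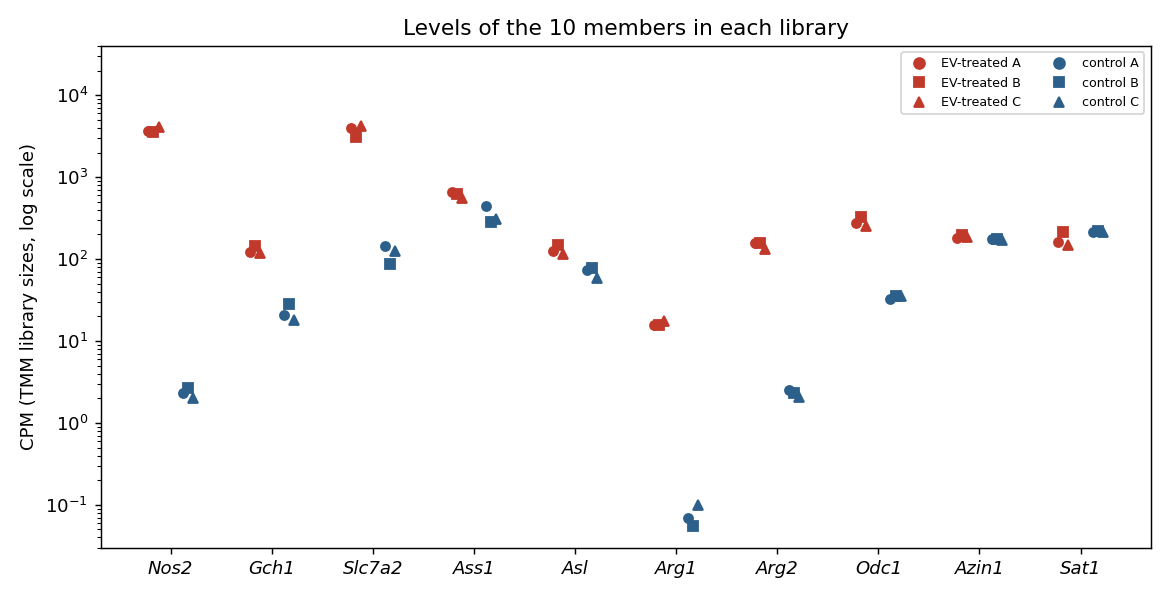
Level of each of the 10 genes in the 6 libraries, in CPM with TMM library sizes on a log scale, EV-treated in red and control in blue, 1 marker shape for each library letter. Nos2, Slc7a2, Arg1, Arg2, Odc1 and Gch1 are separated by wide gaps, Ass1 and Asl by narrow ones, Azin1 lies at nearly the same level in both groups and Sat1 overlaps.

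Nos2 (ENSMUSG00000020826, GRCm38 chromosome 11, 78920787 to 78960254, plus strand) had 3635, 3575 and 4127 CPM in EV-treated A, B and C, against 2.29, 2.63 and 2.03 CPM in control A, B and C. The 3 EV-treated libraries lay close together and far above every control library. The log2 fold change was 10.67 (SE 0.21, adjusted p = 1.07e-09, edgeR's quasi-likelihood test), the 13th highest of the entries tested. Control counts were low but not absent, with 302, 334 and 383 counts over the 31 bins of the gene in control A, B and C.

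By the distance between the 6 centred log2 CPM values, the genes whose pattern was most like that of Nos2 were Ptgs2 (distance 0.296), which encodes the inducible cyclooxygenase, and the cytokine genes Il12b (0.403) and Csf3 (0.462).

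Gch1 (ENSMUSG00000037580, chromosome 14, 47153895 to 47189413, minus strand) had 124, 144 and 120 CPM in EV-treated A, B and C, against 20.7, 28.2 and 18.2 CPM in control A, B and C. The library with the letter B was the highest in each group, and the groups were far apart. Gch1 rose by 2.53 on the log2 scale (SE 0.17, adjusted p = 9.35e-07, edgeR's quasi-likelihood test).

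Of the other 7 genes of tetrahydrobiopterin synthesis and recycling, 6 were tested, of which 3 fell. Spr, which catalyses the last step of synthesis, fell by 1.16 on the log2 scale (SE 0.13), and Qdpr, which recycles the oxidised cofactor, fell by 0.78 (SE 0.14). Gchfr encodes the protein through which tetrahydrobiopterin feeds back on GTP cyclohydrolase. It had 0.194, 0.721 and 0.195 CPM in EV-treated A, B and C, against 1.35, 1.37 and 0.854 CPM in control A, B and C, and fell by 1.69 (SE 0.50, adjusted p = 0.0132, edgeR's quasi-likelihood test). The level was low in every library, and EV-treated B stood above the other EV-treated libraries.

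Slc7a2 (ENSMUSG00000031596, chromosome 8, 40862396 to 40922308, plus strand) had 3938, 3091 and 4162 CPM in EV-treated A, B and C, against 144, 87.2 and 124.8 CPM in control A, B and C. EV-treated B and control B were the lowest of their groups, and the groups did not overlap. The log2 fold change was 4.97 (SE 0.23, adjusted p = 9.42e-08, edgeR's quasi-likelihood test).

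The longer exon shown above, that of CAT-2B, took 96.4%, 95.3% and 93.9% of the counts in the exclusive exons in EV-treated A, B and C, against 95.8%, 94.1% and 92.6% in control A, B and C. Its share was 95.2% ± 1.25 in EV-treated and 94.1% ± 1.58 in control libraries (SD, n = 3 each), a difference smaller than the spread within either group. Both groups therefore counted almost all of these reads in the same exon, and 0 of the 21 bins of Slc7a2 changed its share of the gene's counts. With the replicate letter as a block 4 bins changed, neither of the exclusive exons among them.

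The related transporter gene Slc7a1, named after its values were seen because it encodes CAT-1, had a log2 fold change of 0.01 (SE 0.11), with 38.0 ± 3.59 CPM in EV-treated and 37.7 ± 2.65 CPM in control libraries (SD, n = 3 each). Of the 8 other genes of arginine and ornithine transport, 7 were tested, of which 2 rose and 4 fell. Slc3a2, the heavy chain that cationic and neutral amino acid exchangers share, rose by 1.66 (SE 0.12). The 2 light chains on the list that pair with it fell, Slc7a7 by 1.71 (SE 0.14) and Slc7a6 by 0.34 (SE 0.12), as did Slc25a15, the mitochondrial ornithine carrier, by 1.16 (SE 0.18).

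Ass1, argininosuccinate synthase (ENSMUSG00000076441, chromosome 2, 31470207 to 31520672, plus strand), had 655, 625 and 552 CPM in EV-treated A, B and C, against 442, 283 and 305 CPM in control A, B and C. Asl, argininosuccinate lyase (ENSMUSG00000025533, chromosome 5, 130011258 to 130029247, minus strand), had 127, 151 and 116 CPM in EV-treated A, B and C, against 74.4, 78.7 and 59.6 CPM in control A, B and C. The lowest EV-treated library exceeded the highest control library for both genes, by a smaller ratio than for the other 6 genes that rose.

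Both enzymes of citrulline recycling rose by a similar amount, with log2 fold changes of 0.83 for Ass1 (SE 0.17, adjusted p = 0.002) and 0.89 for Asl (SE 0.14, adjusted p = 3.5e-04, both by edgeR's quasi-likelihood test). Ass1 was already the most abundant of the 10 genes per kilobase of exon in control microglia.

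Arg1, the cytosolic arginase (ENSMUSG00000019987, chromosome 10, 24915208 to 24927470, minus strand), had 15.9, 15.8 and 17.6 CPM in EV-treated A, B and C, against 0.0683, 0.0552 and 0.101 CPM in control A, B and C. The control values rest on 9, 7 and 19 counts. The log2 fold change was 7.71 (SE 0.21, adjusted p = 5.34e-09, edgeR's quasi-likelihood test).

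Arg2, the mitochondrial arginase (ENSMUSG00000021125, chromosome 12, 79130777 to 79156301, plus strand), had 157, 156 and 131 CPM in EV-treated A, B and C, against 2.53, 2.29 and 2.07 CPM in control A, B and C. Per kilobase of exon it was the higher of the arginases in every library. The log2 fold change was 6.01 (SE 0.14, adjusted p = 2.78e-09, edgeR's quasi-likelihood test), with no overlap between the groups.

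Of the 7 other listed genes of arginine synthesis and breakdown, 4 were tested, of which 2 rose and 2 fell. The risers were Nags, at a low level (0.826 to 1.15 CPM in EV-treated and 0.126 to 0.205 CPM in control libraries), and Azin2. The latter is counted again below with the regulators of ornithine decarboxylase. Gatm and Gamt, the enzymes that make creatine from arginine and glycine, fell by 3.14 (SE 0.23) and 4.59 (SE 0.30) on the log2 scale. Gatm had 26.5, 26.8 and 25.8 CPM in EV-treated A, B and C, against 312, 153 and 232 CPM in control A, B and C. Among the 7 genes that interconvert ornithine, proline and glutamate, 1 rose and 5 fell. Oat, ornithine aminotransferase, rose by 0.50 (SE 0.12), while Aldh18a1, the first enzyme of proline and ornithine synthesis from glutamate, fell by 2.25 (SE 0.18), Pycr3, a pyrroline-5-carboxylate reductase, by 1.91 (SE 0.16). Prodh, proline dehydrogenase, also fell (log2 fold change -1.465, SE 0.13).

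Odc1, ornithine decarboxylase (ENSMUSG00000011179, chromosome 12, 17544873 to 17551502, plus strand), had 278, 326 and 255 CPM in EV-treated A, B and C, against 32.3, 35.4 and 35.1 CPM in control A, B and C. The log2 fold change was 3.06 (SE 0.13, adjusted p = 4.76e-08, edgeR's quasi-likelihood test), and the groups did not overlap. It was the only one of the 6 genes of polyamine synthesis to rise, and the other 5 fell. Among those, Srm, spermidine synthase, fell by 1.98 (SE 0.16), Amd1, which makes the aminopropyl donor, by 1.06 (SE 0.13), and Mtap, which salvages the by-product methylthioadenosine, by 0.75 (SE 0.11). Of the rest, Amd2 was near 0 in every library, at 0.0323 to 0.144 CPM, and the groups overlapped for Sms.

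Ornithine decarboxylase is held in check by antizymes, which are themselves bound by antizyme inhibitors. Azin1, antizyme inhibitor 1 (ENSMUSG00000037458, chromosome 15, 38487430 to 38519266, minus strand), had 179, 195 and 185 CPM in EV-treated A, B and C, against 174, 174 and 169 CPM in control A, B and C. The groups did not overlap, but the difference was small and did not pass the test (log2 fold change 0.12, SE 0.10, adjusted p = 0.316, edgeR's quasi-likelihood test). The direction depends on the scaling, with -0.01 under upper-quartile scaling and -0.25 with library totals alone, which place the median of all entries at -0.14 and -0.38. Of the 4 other antizyme and antizyme inhibitor genes, 2 rose and 2 passed in neither direction. Azin2, the other antizyme inhibitor, rose by 0.93 (SE 0.16) and the antizyme gene Oaz2 by 0.52 (SE 0.10). Oaz1, the main antizyme, whose entry is joined with a microRNA gene, had a log2 fold change of 0.03 (SE 0.13).

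Sat1 (ENSMUSG00000025283, chromosome X, 155213132 to 155216449, minus strand) had 164, 216 and 147 CPM in EV-treated A, B and C, against 213, 218 and 213 CPM in control A, B and C. The control libraries lay close together and EV-treated B lay among them, so the groups overlapped. The log2 fold change was -0.29 (SE 0.14, adjusted p = 0.10, edgeR's quasi-likelihood test). Without EV-treated B it was -0.46 and passed the test (adjusted p = 0.00683), and it also passed with upper-quartile scaling, with library totals alone, without the filter on low counts and with the replicate letter as a block. Sat1 is X-linked, and with the sex-linked ratio as a covariate its log2 fold change was -0.18 (adjusted p = 0.633).

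The genes whose pattern was most like that of Sat1 were Exosc9 (distance 0.118), which encodes a subunit of the RNA exosome, C1galt1c1 (0.131), a chaperone of O-glycan synthesis, and Nsmce4a (0.134), of the SMC5/6 complex.

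Around Sat1, the polyamine breakdown and transport genes differed in direction. Smox, which oxidises spermine to spermidine, had 1445, 1447 and 1358 CPM in EV-treated A, B and C, against 68.8, 77.3 and 71.4 CPM in control A, B and C, and rose by 4.29 (SE 0.13, adjusted p = 6.8e-09, edgeR's quasi-likelihood test). It was the only riser among the 6 genes of this list other than Sat1, of which 4 fell. Paox, which oxidises the acetylated polyamines that the Sat1 enzyme makes, fell by 2.92 (SE 0.14). The transporter genes Slc18b1 and Atp13a2 fell by 2.00 (SE 0.19) and 1.14 (SE 0.11). In the hypusine pathway, which uses spermidine to modify the translation factor eIF5A, Dhps rose by 0.70 (SE 0.12), while Dohh fell by 0.58 (SE 0.11), Eif5a by 0.37 (SE 0.13), and Eif5a2 had a log2 fold change of -1.503 (SE 0.15).

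Of the 7 other genes listed as nitric oxide synthases and their regulators, 3 rose and 2 fell, and of the 6 listed for its receptors and the removal of nitrosothiols, 3 were tested, of which 2 rose and 1 fell. Adh5, which reduces S-nitrosoglutathione, rose by 1.12 (SE 0.14). Ddah1, which breaks down the methylarginine inhibitors of the synthases, rose by 4.20 (SE 0.25) from a low level, with 4.23 to 4.75 CPM in EV-treated and 0.164 to 0.299 CPM in control libraries. Its paralogue Ddah2 fell by 3.47 (SE 0.23), and Nostrin, which directs the trafficking of the endothelial synthase, fell by 2.20 (SE 0.19). The genes Gucy1a1, Gucy1a2 and Gucy1b1 of the soluble guanylate cyclase, the receptor of nitric oxide, had too few counts to be tested.

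Over all lists, 60 genes other than the 10 were named and found, and 52 of them were tested, of which 14 rose, 29 fell and 9 passed in neither direction. Of all tested entries, 33.0% rose and 33.5% fell, and these shares also stand beside the counts of each list above. The median log2 fold change of the 52 genes was -0.52, beside -0.02 over all entries tested and 2.80 for the 10. Where values of these genes are named as rises or falls without a p, the adjusted p was under 0.05 by edgeR's quasi-likelihood test and the groups did not overlap. With the sex-linked ratio as a covariate, 9 rose and 22 fell, in a fit that called 43.8% of all entries, against 66.5%.

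**Figure D2:**
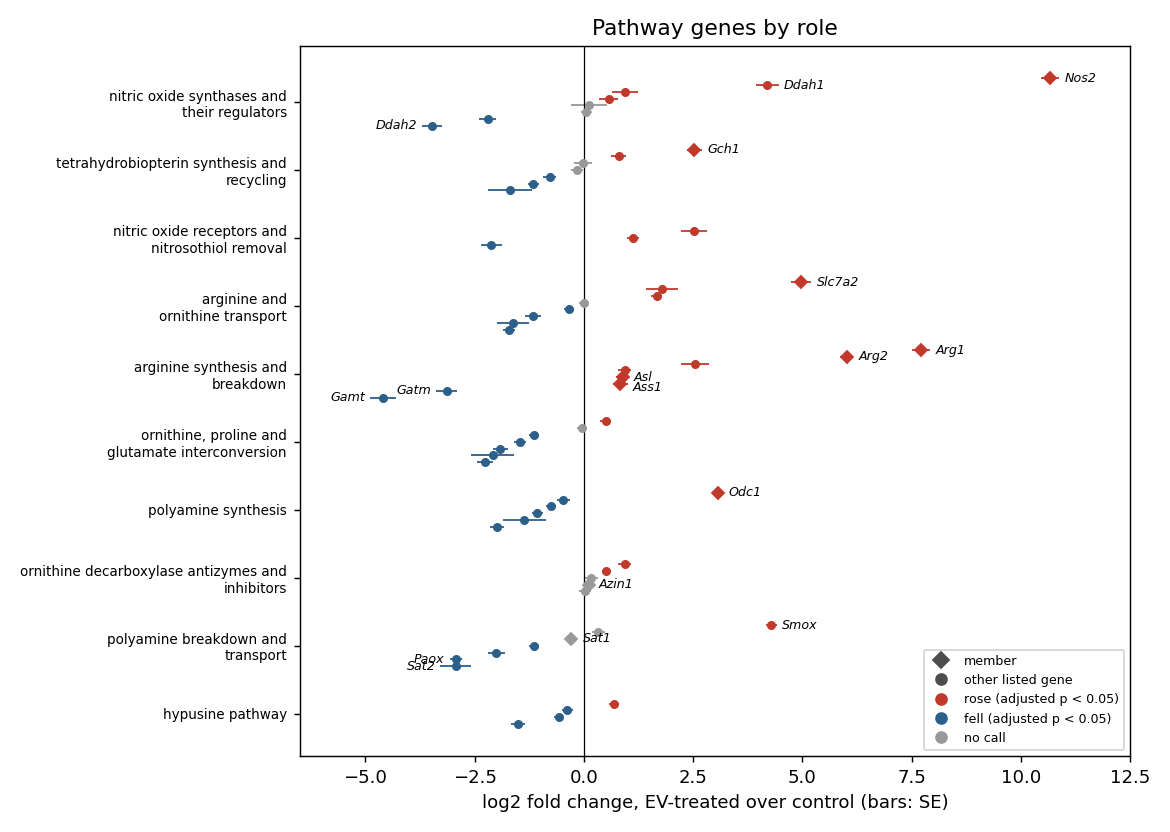
Log2 fold change (EV-treated over control, bars show the SE) of each tested gene of the 10 role lists, with diamonds for the 10 genes followed here and circles for other listed genes, coloured by the outcome of edgeR's quasi-likelihood test. Nos2 (10.67), Arg1 (7.71), Arg2 (6.01), Slc7a2 (4.97) and Smox (4.29) lie farthest to the right, and Gamt (-4.59) farthest to the left.

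Levels between genes were compared per kilobase of annotated exon, with the limit that genes of many short bins may be overstated where a read was counted in several bins. Genes with long annotated bins that held few counts may be understated. In Asl, for example, a bin of 1349 bases held 0 to 16 counts, and in Odc1 a bin of 896 bases held 1.12% to 2.04% of counts. Both limits apply to the order given here and to the levels of the ratios below. In EV-treated libraries the order of the mean CPM per kilobase was Nos2 (857 ± 68.7), Slc7a2 (408 ± 61.8), Ass1 (253 ± 21.8), Odc1 (112 ± 14.1), Arg2 (104 ± 10.1), Sat1 (63.3 ± 12.9), Gch1 (46.5 ± 4.63), Azin1 (29.9 ± 1.35), Asl (27.1 ± 3.65) and Arg1 (11.1 ± 0.680), each with its SD over 3 libraries. In control libraries the order was Ass1 (142 ± 35.8), Sat1 (77.4 ± 1.14), Azin1 (27.6 ± 0.494), Asl (14.7 ± 2.08), Odc1 (13.5 ± 0.674), Slc7a2 (12.99 ± 3.16), Gch1 (8.05 ± 1.87), Arg2 (1.61 ± 0.161), Nos2 (0.526 ± 0.0682) and Arg1 (0.0506 ± 0.0159). Neighbours in this order whose libraries overlapped were Odc1 and Arg2, and Azin1 and Asl, in EV-treated libraries, and Asl and Odc1, Odc1 and Slc7a2, and Slc7a2 and Gch1 in control libraries. By this measure Nos2 stood at rank 60 of 48005 entries in EV-treated and rank 11700 in control libraries, whereas Ass1 stood at rank 235 in EV-treated and rank 260 in control libraries.

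Ratios between genes inside a library do not depend on how libraries are scaled, and 7 pairs were compared. With 3 libraries against 3, the exact permutation test cannot give a 2-sided p below 0.10, which adjusts to 0.117 over the 7 pairs, so none could pass. The log2 ratio of Nos2 to Arg1 per kilobase was 6.26, 6.24 and 6.29 in EV-treated A, B and C, against 3.489, 3.997 and 2.754 in control A, B and C. Nos2 thus exceeded Arg1 in every library, and by 2.85 more on the log2 scale in EV-treated libraries (exact p = 0.10); the difference was 5.51 with 0.5 CPM added to each gene.

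The log2 ratio of Arg2 to Arg1 was 3.35, 3.35 and 2.95 in EV-treated A, B and C, against 5.26, 5.43 and 4.41 in control A, B and C, lower by 1.82 in EV-treated libraries (difference -1.82, exact p = 0.10). With 0.5 CPM added to each gene the difference turned to 0.85, since control Arg1 lies below that amount. The ratio of Ass1 to Asl was 3.23 ± 0.16 in EV-treated and 3.26 ± 0.37 in control libraries (SD, n = 3 each; exact p = 1.0), a difference of -0.03 that lay within the spread. The ratio of Gch1 to its regulator Gchfr was 6.64 ± 0.95 in EV-treated and 2.13 ± 0.26 in control libraries (SD, n = 3 each; exact p = 0.10).

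Odc1 was set against the genes of its antizyme, its antizyme inhibitor and Sat1. The log2 ratio of Odc1 to Sat1 was 0.89, 0.72 and 0.92 in EV-treated A, B and C, against -2.60, -2.50 and -2.48 in control A, B and C, a difference of 3.37 (exact p = 0.10). The ratio of Odc1 to Azin1 also had a different sign in each group, at 1.90 ± 0.14 in EV-treated and -1.04 ± 0.09 in control libraries (SD, n = 3 each; exact p = 0.10). Odc1 stayed below Oaz1 in every library, at -0.90 ± 0.04 in EV-treated and -3.93 ± 0.11 in control libraries (SD, n = 3 each; exact p = 0.10).

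**Figure D3:**
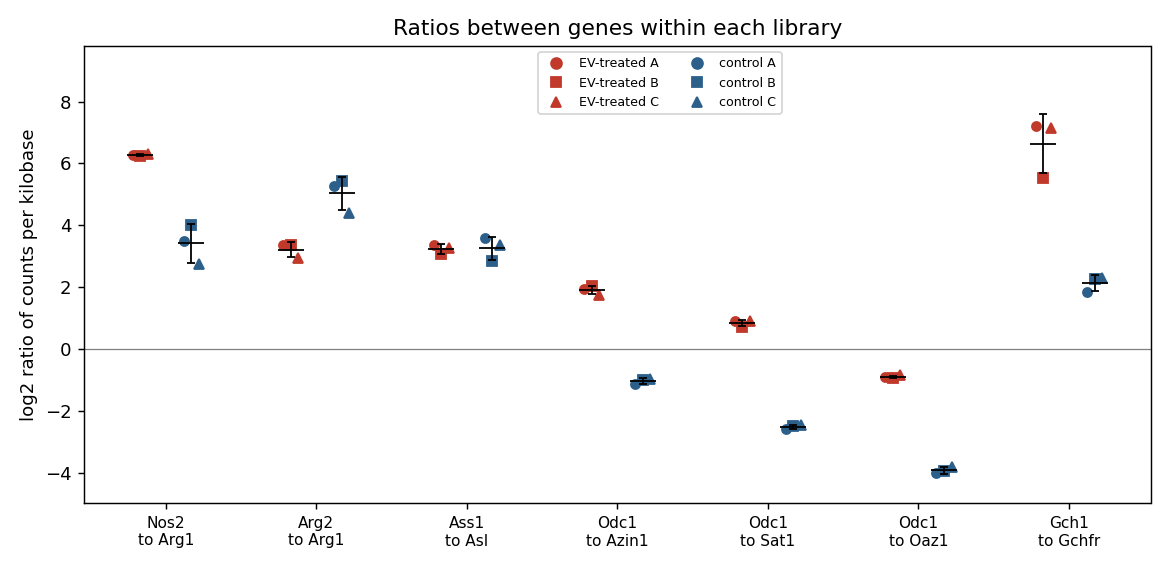
Log2 ratio of counts per kilobase between the genes of 7 pairs within each library, EV-treated in red left of control in blue, with the mean and SD of 3 libraries. The groups overlap for Ass1 to Asl and are apart for the other 6 pairs; the Odc1 to Azin1 and Odc1 to Sat1 ratios lie above 0 in EV-treated and below 0 in control libraries.

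Counts per bin allow a look inside each gene. Of 198361 bins tested over all entries with edgeR's diffSpliceDGE, 4.21% changed their share of the gene's counts at an adjusted p under 0.05, and 2.49% had a lower share in EV-treated libraries. Of the 182 tested bins of the 10 genes, 7 (3.85%) changed, a share near that of all bins, and 5 of the 7 were among the 20 bins of Sat1. The other bins that changed were 1 of Arg2 and 1 of Azin1, and the other 7 genes had 0.

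All 5 Sat1 bins lay in intron 3 and had a lower share in EV-treated libraries, whereas none of the 15 other bins of the gene changed. The extra exon with the early stop codon held 0.808%, 0.672% and 0.696% of Sat1 counts in EV-treated A, B and C, against 1.15%, 1.39% and 1.75% in control A, B and C. Its share was lower in every EV-treated library (log2 change of usage -0.99, adjusted p = 0.00208, edgeR's diffSpliceDGE). The largest piece of the intron, 770 bases annotated in a retained-intron transcript (chrX:155214135-155214904), held 1.51%, 1.92% and 2.55% in EV-treated A, B and C, against 3.85%, 3.80% and 4.77% in control A, B and C (log2 change of usage -1.07, adjusted p = 1.03e-04, edgeR's diffSpliceDGE). The exon and the intron around it thus moved by like amounts, so the counts do not separate inclusion of the exon from retention of the intron.

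Set against the exon just before it, intron 3 had 31.5, 35.4 and 46.1 counts per 100 counts of exon 3 in EV-treated A, B and C, against 72.5, 74.2 and 98.7 in control A, B and C. The next coding exon had 68.7 ± 2.2 per 100 in EV-treated and 69.1 ± 1.8 in control libraries, and intron 4 had 5.53 ± 0.51 in EV-treated and 5.52 ± 0.38 in control libraries (SD, n = 3 each). The first intron had 6.25 ± 0.69 per 100 in EV-treated and 9.39 ± 0.76 in control libraries (SD, n = 3 each), and its bin did not pass the usage test. These ratios were chosen after the bin results were seen and are a description. The counts in them were not divided by length. Exon 3 has 84 bases, intron 1 has 266, and the largest bin of intron 3 alone has 770. Each ratio can therefore be compared between groups but not with another ratio. None is a share of transcripts that keep an intron. Neighbouring bins share reads, so the 5 bins are not independent. Without control C 1 of these 5 bins passed, and without EV-treated A 3 of them did.

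**Figure D4:**
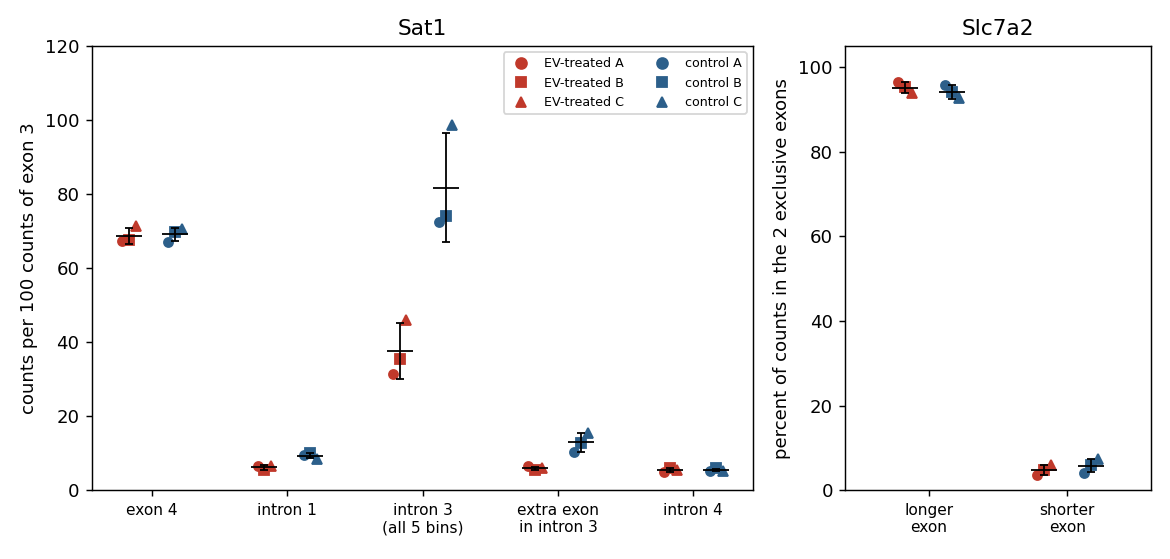
Left, counts in parts of Sat1 per 100 counts of its exon 3 in each library; right, share of the counts in the 2 exclusive exons of Slc7a2 (percent), EV-treated in red left of control in blue, with the mean and SD of 3 libraries. Intron 3 of Sat1 and its extra exon are lower in all EV-treated libraries while exon 4 and intron 4 are level, and the longer exon of Slc7a2 holds 92.6% to 96.4% of these counts in all 6 libraries. Counts of the Sat1 parts are not divided by their lengths.

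In Arg2 the last exon, 476 bases at chr12:79155826-79156301, held 15.8%, 16.2% and 16.4% of counts in EV-treated A, B and C, against 25.8%, 25.1% and 26.2% in control A, B and C (log2 change of usage -0.67, adjusted p = 0.0126, edgeR's diffSpliceDGE). The last bins of the other genes that rose went both ways. Their log2 changes of usage were 0.56 in Odc1, 0.26 in Ass1, 0.12 in Nos2, -0.41 in Asl and -1.03 in Arg1. The change was -0.45 in Gch1 and -0.52 in the larger of the 2 end bins of Slc7a2. None of these passed the usage test. Not all of these bins are comparable ends. That of Odc1 is annotated in a nonsense-mediated decay transcript alone, and the bin before it had -0.25. That of Asl held 8 to 20 counts in each library, and a bin of the same exon with 315 to 532 counts had -0.11. That of Ass1 held 0.628% to 0.820% of counts, and the bin before it, in the same exon, had -0.06. The control values rest on 3 to 5 counts in Arg1 and 8 to 10 in Nos2. Counts per 100 given next were not divided by length. The last exon of Gch1 had 151 ± 10.3 counts per 100 of the exon before it in EV-treated and 218 ± 20.9 in control libraries, and the 2 bins at the end of Slc7a2 had 389 ± 15.3 in EV-treated and 629 ± 41.6 in control libraries per 100 counts of a coding bin (SD, n = 3 each), both picked after their values were seen; the last exon of Gch1 and a last bin of Slc7a2 passed the usage test in the fit with the replicate letter as a block, and so did the last bin of Odc1 in the other direction. Beside these stands the mean position of counts along genes (0 marks the 5′ end and 1 the 3′ end), which over 9325 genes had a median of 0.460 to 0.462 in EV-treated and 0.461 to 0.472 in control libraries. It was lower by 0.038 in Arg2, 0.037 in Gch1 and 0.050 in Slc7a2 in EV-treated libraries (differences of -0.038, -0.037 and -0.050), against a median difference of -0.006 over those genes. The part of RNA quality in these shifts was not tested.

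In Azin1 the bin that rose in share is a 152-base extension of a coding exon, at chr15:38497399-38497550, annotated in a nonsense-mediated decay transcript. It held 0.185%, 0.333% and 0.341% of counts in EV-treated A, B and C, against 0.0959%, 0.132% and 0.123% in control A, B and C (log2 change of usage 1.30, adjusted p = 0.0017, edgeR's diffSpliceDGE). These shares rest on 41, 74 and 81 counts in EV-treated and 22, 29 and 39 counts in control libraries, a small part of the transcripts.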

How the data were processed

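The deposited files hold raw counts as whole numbers for each exon bin, per the file headers, where every bin also has a gene identifier, coordinates, a strand and a length. Trimmomatic 0.36, STAR, Subread and DESeq2, and the build GRCm38, are named in the submitters' processing notes; the sources used here do not give their settings, the annotation release, the strand setting or the handling of reads that match several places. A read overlapping more than 1 bin may count in all of them.

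All bins of an entry were added up. After filterByExpr and TMM scaling, EV-treated and control libraries were compared by edgeR 4.0.16 in R 4.3.3 with the quasi-likelihood functions glmQLFit and glmQLFTest, 2-sided, with Benjamini-Hochberg adjustment over all entries and a threshold of 0.05. Each SE is the absolute log2 fold change over the root of the F statistic. CPM uses TMM library sizes. Bin usage was tested with diffSpliceDGE over all bins, and pair ratios with exact permutation (scipy 1.17.1). Both edgeR tests were run on simulated counts as a check of the code. A far smaller part of genes and bins changed there than in these data. Those runs therefore do not measure error rates here. DESeq2 1.42.0 and limma-voom (limma 3.58.1) were among the alternatives. Symbols came from the reference tables, and exon sequences from GENCODE vM21.

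The 10 genes, the role lists and the tests were chosen with earlier results of these data known. All 10 were named; of the other pathway genes, those with an adjusted p under 0.05, no overlap between groups and a mean log2 CPM of at least 1, up to 3 rising and 3 falling in each list by log2 fold change, plus Oaz1 and Gchfr for the pairs. Amd2, Sms and Nags were named in addition, to give the limits of counts that include them. The 3 nearest patterns were found by Euclidean distance over 6 libraries for the genes with the highest and lowest log2 fold change, passing over unnamed gene models. A gene that this rule takes is not reported here.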

Additional observations from a re-analysis of the deposited data

How the results depend on the processing

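The 8 rises passed the test under every alternative run. The count of falls, 0, became 1 with upper-quartile scaling, without the filter on low counts, with the replicate block and without EV-treated B (Sat1 each time), and 2 with library totals alone (Sat1 and Azin1), where the median of all entries was -0.38; leaving out 1 library at a time gave 0 to 1. Sat1 was -0.41, -0.37, -0.31, -0.46 and -0.66 under these settings in that order. Azin1 turned to -0.01 (-0.006) with upper-quartile scaling and to -0.25 with library totals alone. Of the other pathway genes, 9 rose with the sex-linked covariate, against 14, where 43.8% of all entries were called, against 66.5%. The cause was not tested.

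The ratio of Arg2 to Arg1 turned to 0.85 with 0.5 CPM added to each gene, an amount above every control level of Arg1, and that of Nos2 to Arg1 went to 5.51, against 2.85. The ratio of Ass1 to Asl, near 0, turned to 0.14 with the single bin of most counts, and ranged from -0.24 (-0.239) to 0.13 (0.125) with 1 library left out.

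The 7 changed bins became 4 at an adjusted p under 0.01 and 3 to 8 with 1 library left out; the 5 Sat1 bins became 3 and 1 to 5. With the replicate block there were 13 changed bins, 5 in Sat1, 4 in Slc7a2 and 1 each in Arg2, Azin1, Gch1 and Odc1, and 5.17% of all bins changed, against 4.21%. Same-letter libraries had correlations of 0.035, 0.167 and 0.210 between their deviations from the group means, each library's highest, as a hint from the data and not from the design; the letters are not taken to pair samples, and they differ from the numbers in the deposited column names (1, 2 and 3 in EV-treated A, B and C, against 2, 3 and 4 in control A, B and C). The block changed no call other than those named here for the 10 genes. Control Arg1, Gchfr and the Azin1 bin rest on low counts.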
